A study of Mus musculus with 6 samples.

Results

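Aminoacyl-tRNA synthetases are the enzymes that attach each amino acid to its transfer RNA, and 36 of the 23746 gene loci in the deposited tables code for them. They were taken by symbol from a list of 20 cytosolic and 16 mitochondrial enzymes (the latter with symbols ending in 2), and all 36 were found once in each of the 6 tables. The libraries came from bone marrow of C57BL/6 mice aged 12 weeks that were wild type (WT), heterozygous (Het) or knockout (KO) for Diap1, the gene of the actin-nucleating formin mDia1. Marrow of 4 mice was pooled per genotype. Magnetic beads drew out the cells with Gr1 and Mac1 on their surface (Gr1+Mac1+), which mark granulocytes and monocytes. The rest was depleted down to the Lin- fraction, called progenitors below, though markers of other cell types were also read in it. Each of the 6 groups is thus 1 library of RNA from 1 pool. The sources used here do not give the allele, the way the knockout was made or the cells in which Diap1 is deleted.

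A cell has separate synthetases for its 2 protein-making compartments. The cytosolic enzymes serve the ribosomes that read nuclear messages, and the mitochondrial ones, also encoded in the nucleus, serve the few messages of the mitochondrial genome. In the cytosol, 8 of the listed enzymes sit in a multi-synthetase complex held together by the scaffold proteins Aimp1, Aimp2 and Eef1e1, while Gars and Kars each supply both compartments from 1 gene and are counted here as cytosolic. Genes of cytosolic synthetases are known targets of ATF4, the transcription factor of the amino acid response. Granulocyte precursors lose ribosomes and mitochondria as they mature, while dividing progenitors make much protein.

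Promoter sequences were searched for elements of regulators of the synthetases. RefSeq promoters (GRCm38.p6, the assembly of mm10) were matched by symbol for 26 members, 12 cytosolic and 14 mitochondrial, and the 250 bases before the start site were searched on both strands. The core of the ATF4 element, TGATGNAA, lay before 3 of 12 cytosolic genes (Aars, Gars and Tars) and 0 of 14 mitochondrial ones, and before 3.45% of all 32851 promoters. Annotated exons of Aars itself cover 202 of the 250 bases searched before it. The element of nuclear respiratory factor 1 (NRF1), GCGCATGC, lay before 0 of 12 cytosolic and 3 of 14 mitochondrial genes (Rars2, Vars2 and Wars2) and before 2.26% of all promoters. Those of 5 genes are printed 5′ to 3′ on the strand of the gene, with the searched motifs in capitals, because they hold the ATF4 or the NRF1 element. These counts are small, 10 members had no matched promoter, and no test between compartments was made. For Rars2 (chr4:34614895-34614924, plus strand) only 30 bases round the element are shown, which lie in an annotated exon of its neighbour Orc3. For Vars2 only the 167 bases nearest the start site are shown, since an exon of Gtf2h4 covers 113 bases of its searched window.
Gars: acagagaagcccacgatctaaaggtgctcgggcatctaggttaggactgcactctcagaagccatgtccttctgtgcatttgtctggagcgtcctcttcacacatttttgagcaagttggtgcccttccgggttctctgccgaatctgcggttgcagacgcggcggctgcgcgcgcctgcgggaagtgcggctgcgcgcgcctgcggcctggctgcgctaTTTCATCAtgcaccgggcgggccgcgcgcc
Tars: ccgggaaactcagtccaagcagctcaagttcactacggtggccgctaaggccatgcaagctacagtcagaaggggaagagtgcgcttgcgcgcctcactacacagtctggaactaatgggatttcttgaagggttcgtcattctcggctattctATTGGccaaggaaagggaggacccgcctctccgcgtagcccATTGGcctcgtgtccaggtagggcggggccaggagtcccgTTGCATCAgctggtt
Rars2: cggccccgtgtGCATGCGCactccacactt
Vars2: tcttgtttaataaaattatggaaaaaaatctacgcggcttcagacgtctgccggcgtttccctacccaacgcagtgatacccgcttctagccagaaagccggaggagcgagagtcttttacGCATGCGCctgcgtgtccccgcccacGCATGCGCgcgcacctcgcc
Wars2: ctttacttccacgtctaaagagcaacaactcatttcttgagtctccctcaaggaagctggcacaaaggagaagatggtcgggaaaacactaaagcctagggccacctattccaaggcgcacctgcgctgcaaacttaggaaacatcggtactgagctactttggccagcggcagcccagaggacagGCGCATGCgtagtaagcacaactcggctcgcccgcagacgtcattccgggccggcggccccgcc

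The Gars window is chr6:55037751-55038000 (plus strand), that of Tars chr15:11399659-11399908 (minus strand), the printed stretch of Vars2 chr17:35667593-35667759 (minus strand) and the Wars2 window chr3:99140840-99141089 (plus strand). TTGCATCA in Tars and TTTCATCA in Gars are the ATF4 core on the opposite strand, and GCATGCGC is the NRF1 element on the opposite strand. ATTGG in Tars is the CCAAT box on the opposite strand. Counted back from the start site, with the last base before it as -1, the ATF4 core began at -30 in Gars and at -15 in Tars. The NRF1 element began at -51 in Rars2, at -46 and -20 in Vars2 and at -64 in Wars2. CACGTG, the E-box bound by Myc, lay before 3 of 12 cytosolic genes (Aars, Farsb and Iars) and 0 of 14 mitochondrial ones, against 6.02% of all promoters. CCAAT lay before 6 of 12 and 5 of 14, against 33.8%. Such matches are letters in a window and no measured binding. The median GC content of the windows was 56.8% for members and 52.4% for all promoters.

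The libraries were of like depth. Read as counting error alone, the widths of the deposited intervals imply 8633860 to 11603200 fragments per library. The implied median per synthetase was 1368 to 1753 fragments in Lin- and 432 to 588 in Gr1+Mac1+ libraries. Levels are in FPKM, fragments per unit of transcript length and of sequencing depth, so they can be compared between genes. Diap1 itself stood at 35.97 (WT), 24.2 (Het) and 6.07 (KO) in Lin- and at 57.1, 34.1 and 4.07 in Gr1+Mac1+ cells, in the order of the labels. The 16 measured neutrophil markers summed to 365 (WT), 8440 (Het) and 411 (KO) FPKM in Lin- cells and to between 139800 and 168164 in Gr1+Mac1+ cells, so the Lin- Het library stands apart. Of 11 stem and progenitor markers 0 were at 0 in any library, and they summed to 499 to 568 in Lin- and to 182 to 187 in Gr1+Mac1+ cells. The sum of the erythroid markers was larger than theirs in Lin- cells, at 3696 to 3964, beside 469 to 818 in Gr1+Mac1+ cells. Car1 and Car2 carried much of the Lin- sum, at 1445 and 1336 in Lin- WT cells. Sums over different genes do not count cells. In the test given below, 10 of 13 erythroid markers were called higher in Lin- cells and 2, Alas2 and Slc4a1, lower. Stroma and endothelium markers summed to 409 to 776 in Lin- and to 32.5 to 50.6 in Gr1+Mac1+ cells. The 9 B lineage markers ran the other way, at 11.3 to 26.1 in Lin- and 273 to 319 in Gr1+Mac1+ cells.

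Cytosolic synthetases were abundant in progenitors. Their mean FPKM over the 3 Lin- libraries ran from 28.0 (Cars, the cysteine enzyme) to 165 (Kars, lysine), with a median of 69.4, and all 20 lay above the median of 13.2 over the 11006 loci expressed in Lin- cells. Kars had an FPKM of 173, 165 and 159 in the Lin- WT, Het and KO libraries. Vars, for valine, followed at 138, 142 and 142, and Hars, for histidine, at 144, 125 and 126. Gars, for glycine, had 127, 123 and 107. The ranges of Vars and Hars overlap, and only 5 of the 19 steps in the order of the cytosolic enzymes separate neighbours whose 3 values do not overlap. Class I and class II enzymes, the synthetase families with unrelated catalytic folds, are mixed along this order.

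In Gr1+Mac1+ cells the cytosolic means ran from 10.7 (Cars) to 52.0 (Dars, aspartate), with a median of 21.5 beside 10.9 over 11330 loci. Dars moved from the tenth place among all members to the second. Its FPKM was 53.3, 48.4 and 54.3 in the WT, Het and KO libraries, above Vars at 50.5, 54.2 and 44.0 on average but overlapping it. Eprs, which carries the enzymes for both glutamate and proline on 1 chain, moved the other way, from the sixth place to the thirteenth.

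Mitochondrial synthetases were lower and more uneven. Leaving out Lars2, their Lin- means ran from 3.77 (Pars2, proline) to 64.1 (Iars2, isoleucine) with a median of 16.2, and their Gr1+Mac1+ means from 1.40 (Wars2, tryptophan) to 15.3 (Iars2) with a median of 5.98. Of these 15, 9 lay above the median of all expressed loci in Lin- and 3 in Gr1+Mac1+ cells. Iars2 had an FPKM of 66.5, 64.3 and 61.5 in Lin- WT, Het and KO cells and Tars2, for threonine, 44.8, 43.3 and 43.0. Wars2 stood at 3.94, 3.77 and 4.17, close to Pars2 at 3.42, 3.33 and 4.54, and their ranges overlap.

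Lars2, the mitochondrial leucine enzyme (chr9:123366940-123462664), had a level far from every other member. Its FPKM was 801, 750 and 695 in Lin- WT, Het and KO cells and 657, 622 and 627 in Gr1+Mac1+ cells. That is 4.39 to 4.62 times the next member in Lin- libraries and 11.5 to 12.3 times in Gr1+Mac1+ libraries, and it made up 71.2% to 72.8% and 87.3% to 88.5% of the summed mitochondrial FPKM. The longest annotated Lars2 transcript shares 72 bases at 98.6% identity with Gm15564 and 50 bases at 96% with AA474408. The ribosomal RNA precursor Rn45s lay at 1313 to 1387 in Lin- and 1099 to 1129 in Gr1+Mac1+ libraries. Whether fragments of other transcripts contribute to the Lars2 value was not tested, and sums are given with and without it.

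**Figure D1:**
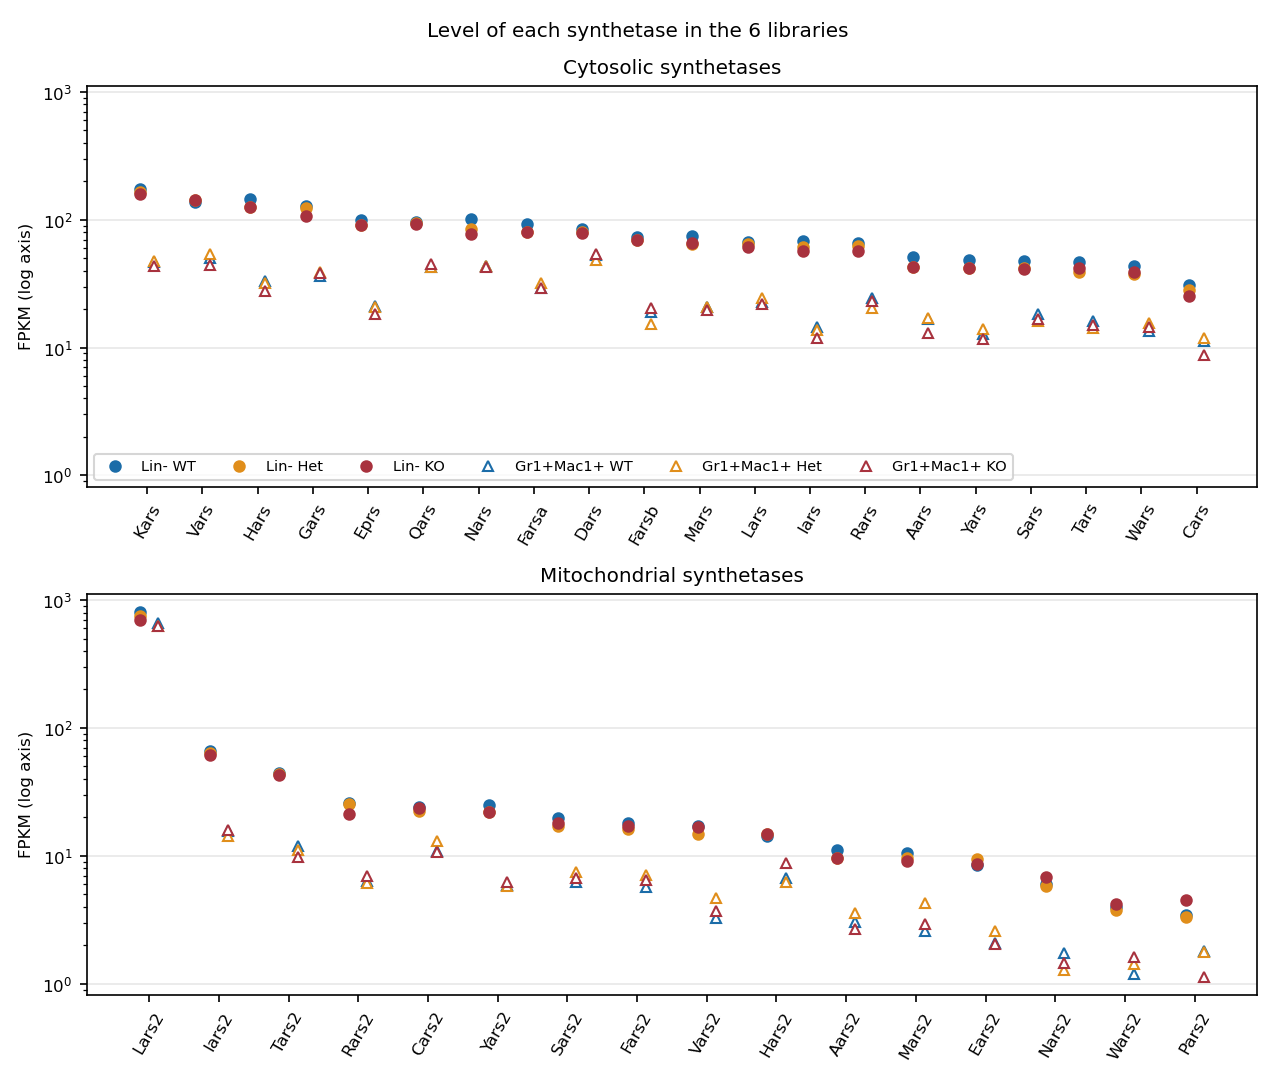
FPKM (log axis) of each synthetase in the 6 libraries, cytosolic above and mitochondrial below, ordered by the Lin- mean. Circles are Lin- and open triangles Gr1+Mac1+ libraries, coloured by genotype. The circles lie above the triangles for every gene, most closely for Lars2, which stands at 622 to 801 in all libraries.

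Summed over members, the cytosolic enzymes took 0.257% ± 0.012 (SD, n = 3 libraries of different genotype) of all FPKM in Lin- and 0.0800% ± 0.0049 in Gr1+Mac1+ cells. For the mitochondrial enzymes without Lars2 the shares were 0.0471% ± 0.0011 and 0.0131% ± 0.00090. Cytosolic enzymes thus outweighed mitochondrial ones 5.46-fold ± 0.13 in Lin- and 6.13-fold ± 0.27 in Gr1+Mac1+ cells, with library values of 5.32 to 5.59 and 5.96 to 6.44 that do not overlap. With Lars2 the ratio was 1.52 ± 0.020 in progenitors and 0.743 ± 0.018 in Gr1+Mac1+ cells, so that 1 gene turns the order of the fractions. The ratio of the member medians, which Lars2 barely moves, was 4.17 ± 0.18 and 3.54 ± 0.22. No direction of the cytosolic to mitochondrial balance between fractions therefore holds across these 3 ways of adding up.

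Within an amino acid, 15 cytosolic chains could be set beside a mitochondrial enzyme, and in 11 of them the cytosolic gene was higher in all 6 libraries. The asparagine pair had the largest ratio. Nars was 16.9, 14.6 and 11.4 times Nars2 in Lin- WT, Het and KO cells and 24.8, 33.7 and 29.2 times in Gr1+Mac1+ cells. Hars was 10.1, 8.40 and 8.44 times Hars2 in Lin- and 5.01, 5.12 and 3.17 times in Gr1+Mac1+ cells, the opposite order. Vars over Vars2 was 8.10, 9.59 and 8.49 in Lin- and 15.5, 11.6 and 11.9 in Gr1+Mac1+ cells. Neither the asparagine, the histidine nor the valine ratio overlaps between fractions, and they move in different directions.

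For isoleucine and threonine the compartments were nearly level. Iars over Iars2 was 1.02, 0.952 and 0.926 in Lin- WT, Het and KO cells and 0.927, 0.960 and 0.750 in Gr1+Mac1+ cells, with overlap. Tars over Tars2 was 1.05, 0.902 and 0.969 in Lin- and 1.37, 1.29 and 1.54 in Gr1+Mac1+ cells, without overlap. For cysteine, Cars over Cars2 averaged 1.20 ± 0.11 in Lin- and 0.920 ± 0.11 in Gr1+Mac1+ cells. Only the leucine pair had the mitochondrial gene far ahead, with Lars at 0.0856 ± 0.0023 of Lars2 in Lin- and 0.0362 ± 0.0025 in Gr1+Mac1+ cells. The remaining pairs had mean ratios between 1.91 (Yars over Yars2, Lin-) and 10.5 (Wars over Wars2, Gr1+Mac1+).

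**Figure D2:**
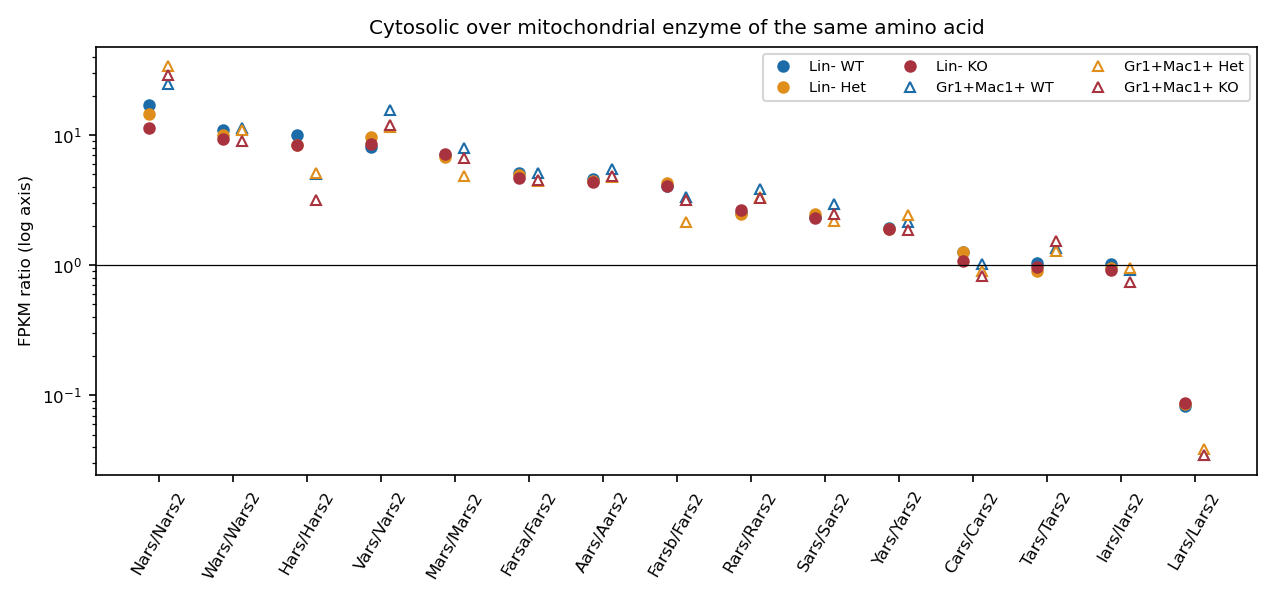
Ratio of the cytosolic to the mitochondrial FPKM (log axis) for the same amino acid in each library, ordered by the Lin- mean. Circles are Lin- and open triangles Gr1+Mac1+ libraries, and the line marks equal levels. The pairs run from Nars over Nars2, at 11.4 to 33.7, down to Lars over Lars2, under 0.1 in all libraries.

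Every synthetase was higher in progenitors than in Gr1+Mac1+ cells. All 20 cytosolic and all 16 mitochondrial members passed the test, limma on log2(FPKM + 1) with the pool as a block and a Benjamini-Hochberg adjusted p under 0.05, while of 11489 loci 51.6% were called higher in Lin- cells and 30.4% lower there. At least 2-fold on that scale were 19 of 20 cytosolic and 12 of 16 mitochondrial members, against 23.4% of all loci. The median log2 difference was 1.47 for cytosolic and 1.40 for mitochondrial members, beside 0.33 for all loci, so that they lay 1.14 and 1.06 above the general shift. With a pseudocount of 0.1 the order of the compartments turned round, to 1.49 and 1.63. Rescaling the libraries by their median ratio takes that shift out. It called 4405 loci higher and 4574 lower in Lin- cells in place of 5931 and 3491, and still called all 20 cytosolic members and 15 of 16 mitochondrial ones higher (medians 1.09 and 1.07). The lowest Lin- FPKM exceeded the highest Gr1+Mac1+ FPKM for each of the 36, as it did for 54.1% of all loci. In pooled cells of a fraction, fewer cells of a type and less RNA per cell cannot be told apart. The 3 pools differ in genotype, so that the spread behind each p-value holds any genotype effect on the difference as well as noise.

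Among the cytosolic enzymes Eprs (chr1:185363095-185428355) differed most. Its FPKM was 99.8, 91.7 and 91.1 in the Lin- WT, Het and KO libraries and 21.3, 20.9 and 18.4 in the Gr1+Mac1+ ones. The lowest Lin- value was thus 4.28 times the highest Gr1+Mac1+ value, and the log2 difference was 2.17 (SE 0.063, limma adjusted p = 0.000109). Iars, the isoleucine enzyme (chr13:49682130-49734267), followed with 68.0, 61.2 and 56.9 against 14.5, 13.7 and 11.9, a log2 difference of 2.13 (SE 0.059, limma adjusted p = 0.000109). Hars, for histidine (chr18:36766528-36783205), had 144, 125 and 126 against 33.3, 31.8 and 27.7, a difference of 2.06 (SE 0.067). Farsb, the beta subunit of the phenylalanine enzyme, had 72.9, 69.9 and 69.1 against 19.04, 15.3 and 20.4, a difference of 1.91 (SE 0.097). Its partner Farsa, the catalytic alpha subunit, differed by 1.45 (SE 0.085).

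At the lower end stood Dars, the aspartate enzyme (chr1:128363707-128417416), with 85.1, 80.5 and 79.2 in Lin- and 53.3, 48.4 and 54.3 in Gr1+Mac1+ cells. The groups do not overlap, but the log2 difference of 0.64 (SE 0.065, limma adjusted p = 0.000806) was the only cytosolic one under 1. Nars, for asparagine (chr18:64499647-64516557), had 102, 84.1 and 77.7 against 43.5, 43.2 and 42.7, a difference of 1.0 (SE 0.090). Here the Gr1+Mac1+ libraries lay close together and the Lin- libraries spread. Qars, for glutamine, differed by 1.10 (SE 0.059) and Sars, for serine, by 1.31 (SE 0.058). The other 11 cytosolic enzymes lay between 1.32 (Cars) and 1.82 (Kars).

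The enzymes of the complex covered the whole cytosolic range. These 8 enzymes (Dars, Eprs, Iars, Kars, Lars, Mars, Qars and Rars) had a median difference of 1.57 and ran from Dars to Eprs, and the 12 free enzymes had a median of 1.47. The single-class enzymes of class I (9 members) and class II (10 members) had medians of 1.44 and 1.47. No test between these groups was made.

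Of the mitochondrial enzymes Iars2 (chr1:185286662-185329401) differed most, with FPKM of 66.5, 64.3 and 61.5 in Lin- WT, Het and KO cells and 15.6, 14.3 and 15.9 in Gr1+Mac1+ cells, a log2 difference of 2.0 (SE 0.070, limma adjusted p = 0.000109). Tars2 had 44.8, 43.3 and 43.0 against 11.9, 11.1 and 9.85, a difference of 1.91 (SE 0.070). Vars2, for valine (chr17:35655635-35667592), had 17.0, 14.8 and 16.8 against 3.26, 4.66 and 3.69. These Vars2 groups are well apart, the difference was 1.83 (SE 0.14), and the Het libraries are the closest to each other. Yars2, for tyrosine, differed by 1.78 (SE 0.078).

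The mitochondrial members under 2-fold on log2(FPKM + 1) were Lars2, Pars2, Hars2 and Cars2. The ratio of their mean FPKM was 2.40 for Pars2, 2.04 for Hars2 and 2.02 for Cars2, and with a pseudocount of 0.1 in place of 1, 15 of 16 mitochondrial members reached 2-fold. Lars2 differed by 0.23 (SE 0.071, limma adjusted p = 0.033), below the median of all loci. Its call was lost without any 1 of the 3 pools (limma adjusted p between 0.079 and 0.14) and with no filter on low values (0.066). When libraries were rescaled by their median ratio its sign turned, to -0.15 (limma adjusted p = 0.11, over all alternatives between 0.019 and 0.14). Pars2 is the least abundant, with 3.42, 3.33 and 4.54 against 1.79, 1.78 and 1.13 from an implied 25 to 97 fragments, and differed by 0.89 (SE 0.18, limma adjusted p = 0.0092). Hars2 (chr18:36783280-36792560) had 14.3, 14.9 and 14.9 against 6.65, 6.22 and 8.75 and a difference of 0.95 (SE 0.11). Hars and Hars2 lie head to head, and their difference between fractions was 2.06 for one and 0.95 for the other. Cars2 differed by 0.96 (SE 0.10). The 8 members not named in this or the preceding paragraph lay between 1.05 (Wars2) and 1.75 (Rars2).

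**Figure D3:**
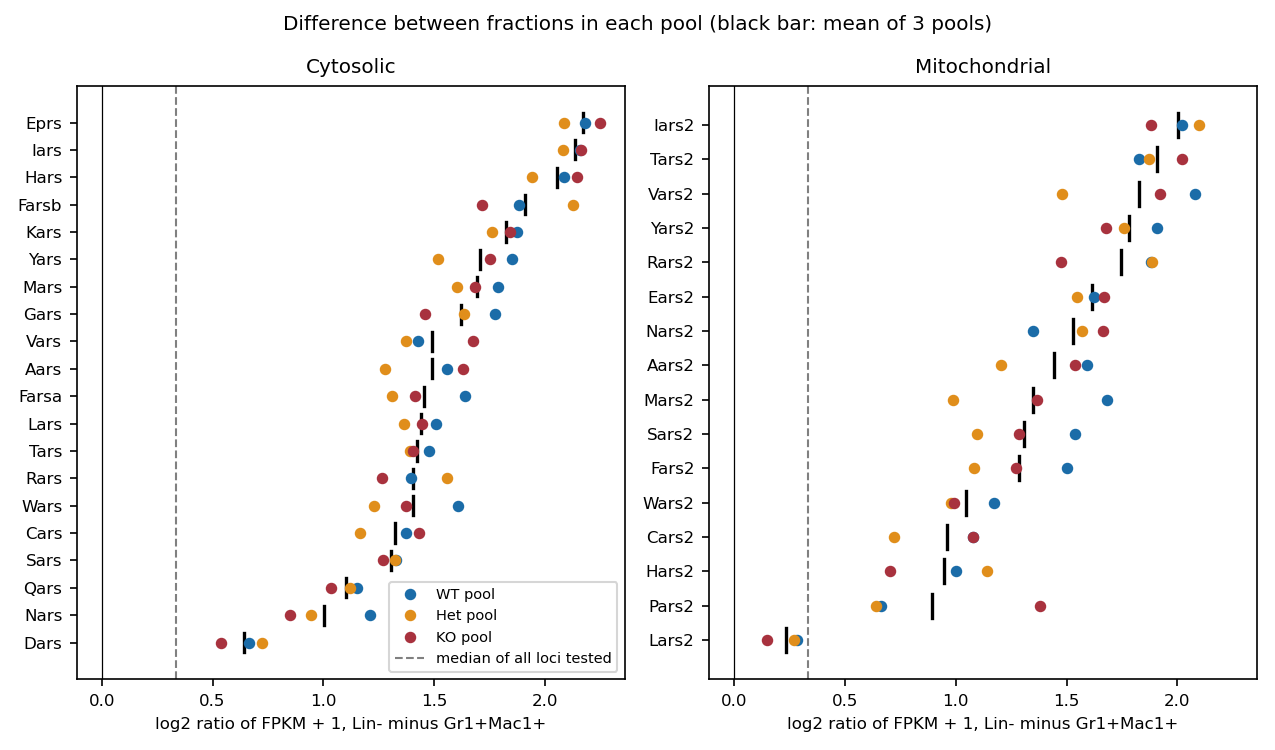
Log2 ratio of FPKM + 1, Lin- minus Gr1+Mac1+, for each cytosolic (left) and mitochondrial (right) synthetase. Points are the 3 pools, black bars their mean, and the dashed line the median of all loci tested at 0.33. All points lie above 0, and Lars2 alone has its mean under the dashed line.

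By pool, the median cytosolic difference was 1.58, 1.38 and 1.45 for WT, Het and KO, and the mitochondrial one 1.56, 1.17 and 1.43. The Het pool had the smallest medians of both, and it is the pool whose Lin- library held 8440 FPKM of neutrophil markers beside 365 and 411. S100a8, 1 of these markers, stood at 2935 there beside 21.1 (WT) and 26.6 (KO), and 0 of the 16 markers were at 0 in any library. The part of these markers in the smaller Het medians was not tested. Without the Het pool, 14 of 16 mitochondrial and 19 of 20 cytosolic members were called with at least 2-fold.

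Most genes on the other lists of charging and translation were also higher in Lin- cells. Cytosolic ribosomal proteins and cytosolic initiation factors were not among these lists. The 3 scaffolds of the complex were called higher (median 1.93), led by Eef1e1, whose FPKM was 74.1 ± 5.4 (SD, n = 3) in Lin- and 12.99 ± 1.1 in Gr1+Mac1+ libraries, a log2 difference of 2.43. Of 8 genes of tRNA editing and repair, 7 were called higher and 1 lower. Aarsd1, which clears serine from alanine tRNA, differed by 1.78, and Ankrd16, a cofactor of the alanine enzyme's editing, went the other way by -0.25 (8.04 ± 0.71 against 9.71 ± 0.11). The 4 genes of mitochondrial tRNA amidation and formylation were called higher, with a median of 0.86 and Gatc the highest at 1.15. These make glutaminyl-tRNA and formylmethionyl-tRNA in mitochondria, where a separate glutamine synthetase is lacking.

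Elongation followed the same direction. All 5 cytosolic elongation factors were called higher (median 1.40), among them Eef1g at 901 ± 57 against 205 ± 1.4, and all 9 mitochondrial translation factors (median 1.41), among them Tufm, the mitochondrial EF-Tu, at 104 ± 11 against 28.1 ± 1.8. Of 77 mitochondrial ribosomal proteins 75 were called higher and 1, Mrpl33, lower (-0.79), with a median of 1.15 and Mrpl52 highest at 2.81. Of 14 proliferation genes 13 were called higher (median 0.96). Each share stands beside the 51.6% of all loci. After rescaling, the scaffolds, the genes of editing and repair, amidation and formylation and the cytosolic elongation factors kept these counts. The mitochondrial translation factors then had 7 of 9 called higher, the ribosomal proteins 66 of 77, and the proliferation genes 9 higher and 2 lower of 14.

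The ATF4 pathway did not move as 1 block. Of its 24 tested genes 12 were called higher and 8 lower in Lin- cells. These counts are near the shares of all loci, 51.6% and 30.4%. The median was 0.25 beside 0.33 for all loci, and after rescaling 10 were higher and 11 lower. Asns, which makes asparagine, had 127 ± 15 in Lin- and 15.2 ± 3.3 in Gr1+Mac1+ cells, a log2 difference of 3.0, and Aldh18a1, of proline synthesis, differed by 2.94. Cebpb, a transcription factor of myeloid cells, had 2.07 ± 1.2 against 42.5 ± 4.4, a difference of -3.89, and Slc7a5, an importer of large neutral amino acids, 2.21. Atf4 itself fell by 0.49, from 154 ± 4.3 in Gr1+Mac1+ to 110 ± 8.1 in Lin- cells. The 3 members with the ATF4 core before their start, Aars, Gars and Tars, differed by 1.49, 1.62 and 1.42, close to the cytosolic median. Those with the NRF1 element, Rars2, Vars2 and Wars2, differed by 1.75, 1.83 and 1.05.

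**Figure D4:**
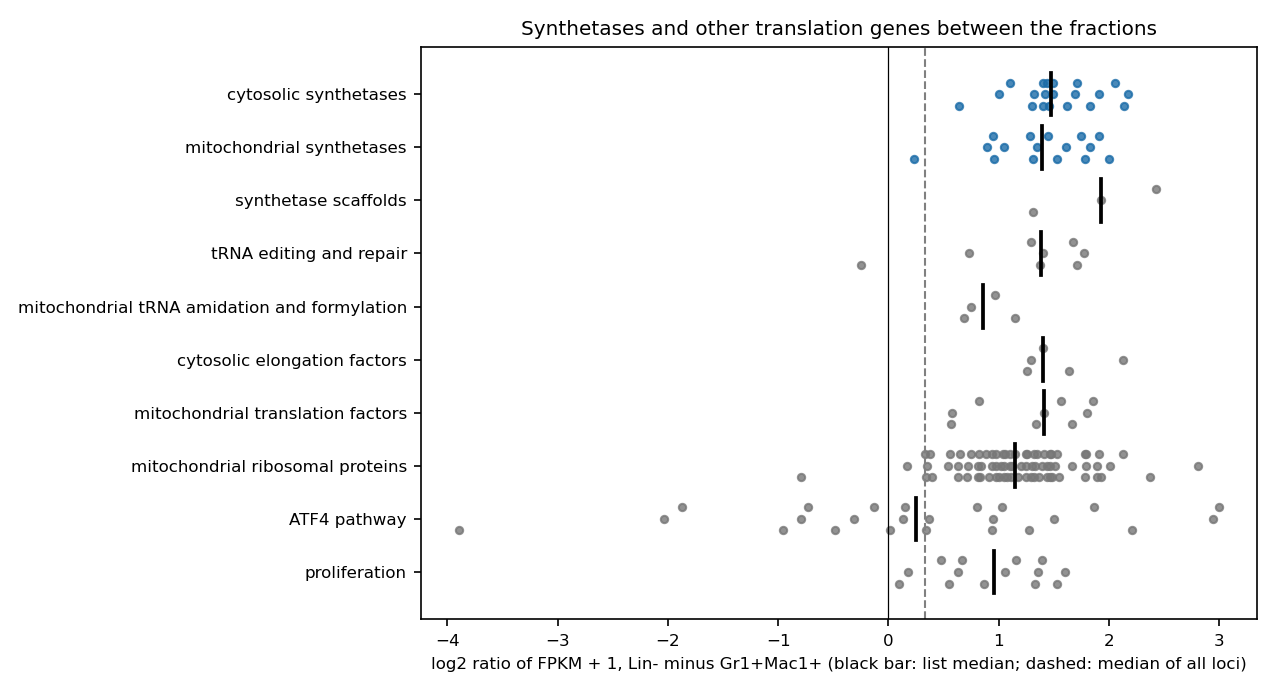
Log2 ratio of FPKM + 1, Lin- minus Gr1+Mac1+, for the synthetases (blue) and other lists of the pathway (grey), with list medians as black bars and the median of all loci dashed. The medians of scaffolds, elongation factors and mitochondrial ribosomal proteins lie right of the dashed line with those of the synthetases. Of their genes, Lars2 (0.23), Mrpl43 (0.17) and Mrpl33 (-0.79) lie left of it. The ATF4 pathway spreads from -3.89 to 3.0.

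Between genotypes no synthetase differed 2-fold. In FPKM without a pseudocount the ratios came closest for Mars2, 66.0% higher in Het than in WT Gr1+Mac1+ cells, and for Pars2, which fell by 37.0% from WT to KO there. The rule of size asked for 2-fold on log2(FPKM + 1) and at least 5 FPKM in whichever library was higher. It also asked for deposited intervals that do not overlap. With 1 library per group no test is possible, and these intervals hold no spread between pools. In Lin- cells 0 of 36 members passed in KO against WT, 0 in Het against WT and 0 in KO against Het, beside 0.173%, 1.36% and 1.25% of loci. In Gr1+Mac1+ cells the counts were also 0, beside 0.142%, 0.133% and 0.133%. With so few loci passing, 0 of 36 says little about the synthetases. Aars2, Ears2, Mars2, Nars2, Pars2, Vars2 and Wars2 stayed under 5 FPKM in every Gr1+Mac1+ library, and Pars2 and Wars2 in every Lin- library. These could not pass there at any ratio. The Het and KO comparisons share the WT library of their fraction, so a WT value that is off by chance moves both.

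In Lin- KO cells the cytosolic synthetases were mostly a little below WT. The log2 ratio was negative for 19 of 20, with a median of -0.18, and the intervals were apart and lower for 15 of 20, beside 7.38% of all loci. Of the 16 mitochondrial members 11 were negative (median -0.07) and 3 were lower with intervals apart (Iars2, Lars2 and Rars2). None of the 36 was higher with intervals apart, beside 6.16% of loci. Loci within the range of cytosolic levels (2603 loci at 28.0 to 165 FPKM) had a median of -0.04, 61.2% of them negative and 15.9% lower with intervals apart. Markers of other cell types moved in the same comparison. All 9 tested monocyte markers were higher in KO (median 0.57, 6 with intervals apart), as were 9 of 11 stem and progenitor markers (median 0.19, 5 apart), while 6 of 7 megakaryocyte markers were lower (median -0.45, 5 apart) and 6 of 7 T and NK cell markers (median -0.59, 2 apart). The part of these cells in the synthetase ratios was not tested.

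Nars had the largest ratio of these. In the WT, Het and KO libraries it read 102 (deposited bounds 97.3 and 106), 84.1 (80.01 and 88.1) and 77.7 (73.8 and 81.7), a log2 ratio of -0.38 (counting SE 0.048) for KO, and the WT interval lies above both others. Aars, for alanine, had 51.3 (49.5 and 53.0), 42.8 (41.1 and 44.5) and 42.4 (40.7 and 44.1), a KO ratio of -0.27 (counting SE 0.038). Cars stood at -0.26 (counting SE 0.085) and Iars at -0.25 (counting SE 0.035). Vars was the exception, at 138, 142 and 142, with 0.05 (counting SE 0.024), and Qars at -0.06, Farsb at -0.07 and Dars at -0.10 were the closest to WT among the negative ones.

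Mitochondrial ratios in Lin- KO cells ran from Rars2, for arginine, at -0.29 (26.1, 25.2 and 21.2 in WT, Het and KO, counting SE 0.087) to Pars2 at 0.33 (counting SE 0.18). Lars2 stood at -0.20, Mars2 at -0.19 and Aars2 at -0.18. Nars2 at 0.15, Wars2 at 0.07 and Hars2 at 0.05 were above WT, each with overlapping intervals. The counting SE of the mitochondrial members was larger, with a median of 0.093 beside 0.043 for the cytosolic ones.

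Lin- Het cells gave a like picture against the same WT library. The ratio was negative for 19 of 20 cytosolic members (median -0.14) and for 14 of 16 mitochondrial ones (median -0.07). Intervals were apart and lower for 10 cytosolic and 2 mitochondrial members, beside 6.2% of loci, and apart and higher for 0, beside 8.41%. Among loci at the cytosolic level 60.4% were negative and 13.1% lower with intervals apart. Nars at -0.27, Tars at -0.26, Aars at -0.25 and Yars at -0.21 were the lowest cytosolic ratios. Lars at -0.06, Gars and Qars at -0.04 and Vars at 0.04 were the highest. On the mitochondrial side Sars2 stood at -0.21, Aars2 at -0.20, Vars2 at -0.19 and Yars2 at -0.18, and Ears2, for glutamate, was highest at 0.14 (counting SE 0.13). The neutrophil markers in this library, 8440 FPKM in sum, move with the comparison, as do the megakaryocyte markers (7 of 7 higher, median 0.54) and the monocyte markers (9 of 9 higher, median 0.73), and their part was not tested.

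Other translation genes in Lin- cells varied by list. Of the 77 mitochondrial ribosomal proteins 57 (74.0%) were negative in KO against WT (median -0.11) and 59 (76.6%) in Het against WT (median -0.08), beside 49.2% and 50.02% of all loci. The 9 mitochondrial translation factors had medians of -0.14 and -0.10, with 8 negative in each comparison. The 5 cytosolic elongation factors split in KO, 2 higher and 3 lower with intervals apart (median -0.07), beside 6.16% and 7.38% of all loci. In Het all 5 were lower with intervals apart (median -0.10), beside 6.2% of loci. Their median counting SE was 0.016 in both comparisons, beside 0.097 and 0.095 for all loci, so small ratios part their intervals. Of the 24 ATF4 pathway genes 17 (70.8%, median -0.12) and 16 (66.7%, median -0.08) were negative. The 14 proliferation genes had medians of 0.04 and 0.06.

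The marker sums of the Lin- libraries differed by cell type. In WT, Het and KO the erythroid markers summed to 3728, 3696 and 3964 FPKM and the stem and progenitor markers to 508, 499 and 568. The megakaryocyte markers summed to 349, 482 and 233, the monocyte markers to 56.8, 121 and 90.3 and those of stroma and endothelium to 409, 776 and 490. The last 3 sums thus moved by larger factors than the first 2.

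In Gr1+Mac1+ cells the pattern was less even. In KO against WT 14 of 20 cytosolic ratios were negative (median -0.09), 6 of them with intervals apart (Aars, Cars, Eprs, Hars, Iars and Vars), beside 5.57% of loci, and 7 of 16 mitochondrial ratios were negative (median 0.04). Aars read 16.7 (bounds 15.8 and 17.7), 17.1 (16.0 and 18.1) and 13.03 (12.0 and 14.0) in the order WT, Het, KO, a KO ratio of -0.34 (counting SE 0.064), so here Het lay with WT. Cars stood at -0.33, and Iars and Hars at -0.26. Farsb at 0.09, Gars and Wars at 0.08 and Qars at 0.06 were the highest, all with overlapping intervals. In this fraction the erythroid markers summed to 818, 556 and 469 for WT, Het and KO, and its part in these ratios was not tested.

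Hars2 was the only member with a higher KO interval in this fraction, beside 5.25% of loci. Its values were 6.65 (bounds 5.87 and 7.43), 6.22 (5.42 and 7.01) and 8.75 (7.71 and 9.79) for WT, Het and KO, a log2 ratio of 0.35 (counting SE 0.11). Its head-to-head neighbour Hars went from 33.3 to 27.7. In Lin- cells the Hars2 ratio was 0.05, with overlapping intervals. Wars2 at 0.25, Fars2 at 0.15 and Vars2 at 0.14 followed, and Pars2 at -0.39 (counting SE 0.23), Tars2 at -0.25, Nars2 at -0.16 and Aars2 at -0.13 were lowest, all with overlapping intervals.

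In Gr1+Mac1+ Het cells 10 of 20 cytosolic and 8 of 16 mitochondrial ratios were negative (medians 0.00 and 0.06). Intervals were apart and lower for Farsb, Rars and Lars2, beside 8.49% of loci, and apart and higher for Mars2 and Vars2, beside 8.27%. Mars2, for methionine, had 2.59 (bounds 2.09 and 3.09), 4.30 (3.62 and 4.99) and 2.93 (2.31 and 3.55) for WT, Het and KO, a Het ratio of 0.56 (counting SE 0.14) that KO does not share. Vars2 had 3.26 (2.81 and 3.71), 4.66 (4.09 and 5.23) and 3.69 (3.14 and 4.25), a Het ratio of 0.41 (counting SE 0.10). Farsb stood at -0.30 and Rars at -0.26, Tars at -0.17 and Sars at -0.16, and Wars at 0.19, Yars and Farsa at 0.13 and Vars at 0.10 were the highest cytosolic ratios. Fars2 at 0.28 and Cars2 at 0.24 were next on the mitochondrial side, where Nars2 at -0.27, Iars2 at -0.12, Tars2 at -0.09 and Hars2 at -0.08 were lowest.

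KO set against Het left little in Lin- cells. The cytosolic median was -0.02 and the mitochondrial one 0.01. Gars, Iars and Lars2 were lower with intervals apart, beside 7.4% of loci, and 0 members were higher, beside 3.57%. Gars stood at -0.20 (counting SE 0.036), Rars2 at -0.24 and Pars2 at 0.35, the latter 2 with overlapping intervals. In Gr1+Mac1+ cells the medians were -0.11 and -0.12. Aars, Cars, Eprs, Vars and Mars2 were lower with intervals apart, beside 9.13% of loci, and Dars, Farsb and Hars2 higher, beside 9.46%. Mars2 at -0.43 and Cars at -0.40 were the lowest and Hars2 at 0.43 and Farsb at 0.39 the highest.

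**Figure D5:**
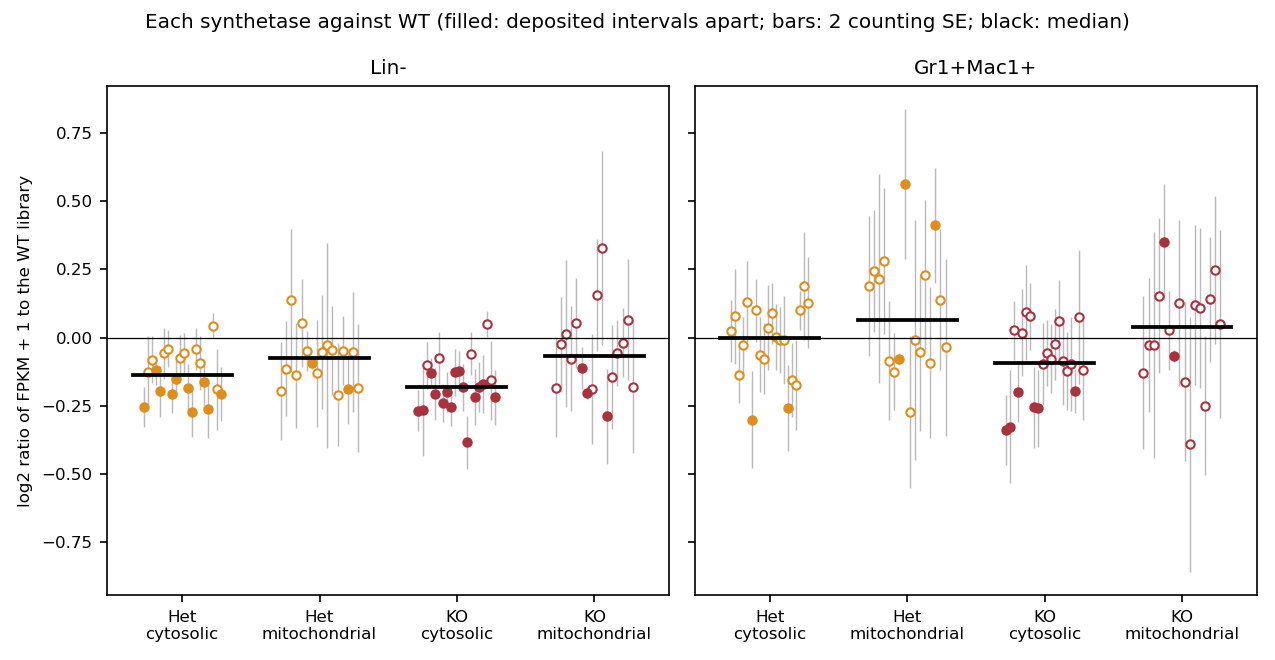
Log2 ratio of FPKM + 1 of each synthetase in Het and KO libraries to the WT library of the same fraction. Filled points have deposited intervals that do not overlap, grey bars are 2 counting SE and black bars are medians. The Lin- cytosolic points lie mostly under 0, with medians of -0.14 (Het) and -0.18 (KO), and no point reaches 1 or -1.

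Some members share sequence or place with other genes. In the deposited loci Aars overlaps Exosc6 by 532 bases, Iars2 overlaps Rab3gap2 by 85, Mars overlaps Ddit3 by 68 and Yars overlaps C77080 by 30. The Iars2 locus also holds the microRNA genes Mir194-1, listed at 356 FPKM in Lin- WT and at 0 in Gr1+Mac1+ WT cells, and Mir215, listed at 25.5 and 0. In annotated transcripts Aars shares 1326 bases at 100% identity with Exosc6 on the same strand. Exosc6 had 18.6 FPKM in Lin- WT and 6.44 in Gr1+Mac1+ WT cells. Iars2 shares 2034 bases with Rab3gap2 on the opposite strand (18.3 FPKM in Lin- WT and 13.2 in Gr1+Mac1+ WT cells). Hars shares 195 with Hars2, also on the opposite strand. Ddit3, an ATF4 pathway gene, lies on the strand opposite to Mars, and since the strand setting of the authors' counting is not given here, fragments of such partners cannot be told apart. The pseudogene Gm4849 shares 1656 bases with Iars at 96.0% identity. Hars2, Hars, Lars and Nars lie on chromosome 18 with Diap1, at 1.05, 1.06, 4.27 and 26.6 Mb from it.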

How the data were processed

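RNA of 6 libraries, 1 per fraction and genotype, was measured by sequencing. The deposited values are FPKM per locus, made by the authors, with the bounds of an interval and a status flag, per the file headers. TopHat2 2.0.7, TopHat and Cufflinks 2.0.2 and the build mm10 are named in the submitters' processing notes; the sources used here do not give their roles, the annotation or the strand setting. Since FPKM is relative to the library total, and the 10 most abundant loci held 8.72% to 10.5% of it in Lin- and 25.1% to 27.8% in Gr1+Mac1+ libraries, all other loci are lowered in the latter.

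Loci with status OK in all 6 libraries and a mean FPKM of at least 1 (11489) were tested in R 4.3.3 by limma 3.58.1 (eBayes with trend), on log2(FPKM + 1), with terms for the fraction and for the pool as a block, because the cells of a pool were split into fractions, per the labels' protocols. This left 2 residual degrees of freedom. A locus was called at a Benjamini-Hochberg adjusted p under 0.05. Fold changes on this scale understate the change of low genes. The fit was also run on simulated data with independent noise, no pool effect and few changed loci. It called 87 of 100 loci changed by 1 log2 unit, 99 of 100 changed by 2, and 10 of 11289 unchanged ones. That setting differs from these data and says nothing on pools of different genotype.

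Genotypes were compared by the size rule given in the text, with no test. The loci had status OK in the 2 libraries and a mean FPKM of at least 1 over the 3 libraries of the fraction. Counting SEs come from the interval widths, as do the implied fragments. Below 50 implied fragments, 60.8% to 63.3% of loci came out whole within 0.05. Intervals hold no spread between pools, and their widths are not counting error alone for every locus. Qars had 42.8 and 42.6 FPKM in Gr1+Mac1+ WT and Het cells but 1121 and 420 implied fragments. Counting SEs and implied fragments are therefore nominal. The p-values measure the spread between 3 pools of different genotype.

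The members and lists were chosen with earlier results of these data known. All 36 members are named, with fuller values for the 4 largest and 4 smallest ratios per compartment, and of other lists up to 4 genes with the largest absolute ratio (Atf4, Ankrd16 and Mrpl33, outside this rule, were named after their values were seen). Of 281 list symbols 2 did not match and 4 matched by an older symbol. Locus starts were read as 0-based and are printed 1-based. Shared stretches came from blastn 2.17.0 against GENCODE transcripts, with at least 50 bases at 95% identity. Protein features were planned and are not analysed here, and 1 promoter window is not reported here. Python 3.11.15 with pandas 2.3.3, numpy 2.4.6 and matplotlib 3.10.9 served for the rest. Alternatives were pseudocounts of 0.1 and 5, other filters, rescaling by the median ratio, no block, leaving out pools, a 1.5-fold rule, no interval criterion, and other sums. Chosen after seeing the data were sums without Lars2 and intervals apart at any size.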

Additional observations from a re-analysis of the deposited data

Results flagged for a closer look

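Vars2, the mitochondrial valine enzyme, moved in opposite directions in the fractions of the Het pool. Its log2 ratio to WT was -0.19 in Lin- cells (17.0 to 14.8 FPKM) and 0.41 in Gr1+Mac1+ cells (3.26 to 4.66 FPKM). Deposited intervals were apart in both. In Lin- cells they only just missed each other, with a lower WT bound of 15.9 and an upper Het bound of 15.8. Of all loci, 6.2% were lower with intervals apart in Lin- Het cells and 8.27% higher in Gr1+Mac1+ Het cells. The Lin- Het library is also the one with 8440 FPKM of neutrophil markers, whose part was not tested. The difference between fractions was not tested, since each group is 1 library.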

How the results depend on the processing

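All 20 cytosolic members stayed called higher in Lin- under each of the 9 alternatives, and the mitochondrial count lay between 13 (mean FPKM of at least 5, where fewer are tested) and 16; 316 of 321 recomputed member ratios kept direction and call, and the other 5 are those of Lars2. Its ratio turned to -0.15 after rescaling. Without the pool as a replicate block, 20 cytosolic and 16 mitochondrial members were called, so the block changed no call among members. Leaving out 1 pool gave 18 to 19 cytosolic and 12 to 14 mitochondrial members at 2-fold. A pseudocount of 5 left 5 mitochondrial members at 2-fold and medians of 1.32 (cytosolic) and 0.92 (mitochondrial), a pseudocount of 0.1 gave 15 mitochondrial members at 2-fold and medians of 1.49 and 1.63, which turns the order of the compartments round, and rescaling gave 1.09 and 1.07. Intervals apart at any size counted 18 (KO against WT), 12 (Het against WT) and 3 (KO against Het) of 36 members in Lin- and 8, 5 and 8 in Gr1+Mac1+ cells, where the size rule counted 0. Of all loci in the same comparisons, 7.38%, 6.2% and 7.4% were apart and lower in Lin- cells and 6.16%, 8.41% and 3.57% higher. In Gr1+Mac1+ cells these shares were 5.57%, 8.49% and 9.13% lower and 5.25%, 8.27% and 9.46% higher.

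Without the 100 most abundant loci, the cytosolic share came to 0.424% (Lin-) and 0.158% (Gr1+Mac1+). Without Gars and Kars it was 0.211% and 0.0675%, and the cytosolic to mitochondrial ratio 1.24 and 0.627. Medians over members gave 4.17 and 3.54, and sums without Lars2 5.46 and 6.13. With 1 library per genotype and fraction, differences between genotypes have no replicate check, and for Pars2, with an implied 25 fragments in 1 library, counting error alone is wide.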
